A study of Homo sapiens with 6 samples.

Results

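The genes described here encode plasminogen, the proteases that activate it, their cell-surface receptors and the serpins that block them, measured by RNA-seq in untreated HK-2 cells and in HK-2 cells given TGF-β1. The set was chosen by gene name and held 8 members, PLAU, PLAT, PLAUR, PLG, PLGRKT, SERPINE2, SERPINB2 and SERPINF2, out of 41497 named entries in the gene tables. No expression value entered this rule, but the set was chosen with earlier results of these data known. Of the 8 members, 5 had enough reads to enter the test, which covered 14860 entries, and 3 did not.

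Plasminogen circulates as an inactive precursor that is cut to plasmin, a protease that dissolves fibrin and helps to degrade extracellular matrix. The cut is made by urokinase (PLAU), which acts mostly at the cell surface bound to its receptor PLAUR, and by tissue plasminogen activator (PLAT), which acts mostly on fibrin. Serpins restrain the system by binding the proteases irreversibly: SERPINE2 (protease nexin-1) and SERPINB2 (plasminogen activator inhibitor 2) block the activators, and SERPINF2 (alpha-2-antiplasmin) blocks plasmin. In the kidney, urokinase is made by tubular epithelium, and reduced plasmin activity has been studied in relation to scarring.

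HK-2 cells derive from human proximal tubular epithelium and were immortalised for culture, and the study asked how these cells respond to TGF-β1, a profibrotic cytokine. All 6 libraries came from cells labelled WT, namely 3 Control libraries of untreated cells and 3 TGF-b1 libraries of cells given TGF-β1, each with a time of 24 hours. The labels describe maintenance in serum-containing medium, whereas the cell culture methods describe serum-free medium and a dose for TGF-β treatment in general. The sequencing methods repeat neither for the sequenced cells, and the serum condition of the controls is not given. The labels do not say whether replicates were separate cultures, so p-values measure only the spread between these libraries, which may be technical.

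Total counts per library were 22.02 to 23.7 megacounts (M) in Control and 21.9 to 26.9 M in TGF-b1. The libraries separated by group on the first principal component, with 69.7% of the variance, and TGF-b1 replicate 1 stood apart from the other two TGF-b1 libraries on the second, with 9.94%. Of 12 proximal tubule markers, 5 exceeded 1 TPM (transcript abundance scaled to the library total and the gene length) and LRP2 had 0 reads. Their summed level was 306 to 332 TPM in Control and 175 to 194 TPM in TGF-b1 libraries. The epithelial markers KRT8, KRT18 and EPCAM summed to 1187 to 1220 TPM and 1586 to 1744 TPM. Of 4 fibroblast markers, PDGFRB and LUM exceeded 1 TPM, and the list summed to 71.6 to 86.3 TPM and 58.8 to 62.8 TPM. The 3 endothelial markers summed to at most 1.15 TPM. Of 3 leukocyte markers CD68 and CD14 exceeded 1 TPM, and the list summed to 189 to 202 TPM and 112 to 149 TPM. The part of these shifts in the results below was not tested.

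Sequences before a start of PLAU, SERPINE2 and PLAUR are shown first, as 1 example each of an activator, an inhibitor and a receptor. RefSeq (GRCh38.p14) gave upstream windows for 9 starts of 6 members, with more than 1 start for PLAU, SERPINE2 and PLG, and none for PLAT or SERPINF2. Each run is 250 bases, 5′ to 3′ on the strand of the gene, ending at the base before an annotated start. Capitals mark matches on either strand to AP-1 (TGANTCA), the GC box (GGGCGG), the TATA box (TATAAA), the CCAAT box (CCAAT), the palindromic SMAD element (GTCTAGAC) and its short form (CAGAC).
PLAU, chr10:73910882-73911131, plus strand: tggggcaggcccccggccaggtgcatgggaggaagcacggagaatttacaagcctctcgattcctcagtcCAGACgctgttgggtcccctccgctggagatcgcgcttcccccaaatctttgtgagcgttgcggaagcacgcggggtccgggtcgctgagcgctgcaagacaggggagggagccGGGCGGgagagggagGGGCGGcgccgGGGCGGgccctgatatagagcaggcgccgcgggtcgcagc
SERPINE2, chr2:224031479-224031728, minus strand: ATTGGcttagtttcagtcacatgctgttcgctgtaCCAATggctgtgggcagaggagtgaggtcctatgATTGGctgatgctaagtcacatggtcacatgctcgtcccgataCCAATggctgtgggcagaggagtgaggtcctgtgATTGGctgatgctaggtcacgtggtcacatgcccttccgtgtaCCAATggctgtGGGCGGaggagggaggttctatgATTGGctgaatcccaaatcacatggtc
PLAUR, chr19:43670170-43670419, minus strand: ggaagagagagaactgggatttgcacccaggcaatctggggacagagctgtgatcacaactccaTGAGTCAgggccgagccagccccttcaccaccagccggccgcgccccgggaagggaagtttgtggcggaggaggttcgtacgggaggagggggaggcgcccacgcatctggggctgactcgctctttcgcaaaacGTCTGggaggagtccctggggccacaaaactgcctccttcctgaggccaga

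The PLAU window shown lies within the annotated span of the gene. It held 3 GC boxes at 66, 51 and 40 bases before the start and 1 short SMAD element at 180 bases. A GC box was present in 42.6% of the 35116 windows of this length in the table, and a short SMAD element in 38.0%. The other PLAU window (chr10:73910360-73910609) held 1 CCAAT box and neither of these motifs. The SERPINE2 window shown also lies within the annotated span of its gene. It held 1 GC box and 7 CCAAT boxes in alternating orientation within a repeated stretch. At least 1 CCAAT box was present in 32.0% of all windows, and 7 or more in 7 of them, or 0.0199%. The CCAAT letters were added to the search after this sequence had been seen. The other SERPINE2 window (chr2:224038641-224038890) held 2 GC boxes and 0 CCAAT boxes, so the motifs differed between starts of the same gene. The PLGRKT window held 2 CCAAT boxes and none of the other motifs. PLAUR held 1 AP-1 match at 186 bases, a motif found in 6.57% of windows, and 1 short SMAD element at 51 bases. SERPINB2 also held 1 AP-1 match, at 102 bases, and 1 short SMAD element, at 9 bases. It held 1 TATA box at 30 bases, a motif found in 10.7% of windows. The PLG windows held none of the motifs. No window of the 6 members that matched the table held the palindromic SMAD element, which 0.182% of all windows held, and none of the matches shown overlapped another motif. These matches describe letters and not binding.

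Across the members, TGF-β1 was accompanied by a change in 4 of the 5 that were tested. SERPINE2, PLGRKT and PLAU rose, PLAT fell, and PLAUR was not called. Among all 14860 entries tested, 44.3% were called at an adjusted p under 0.05 in the edgeR quasi-likelihood test, with 22.2% higher and 22.1% lower. Without TGF-b1 replicate 1, all 5 tested members were called, and the share over all entries was also higher, at 47.6%. SERPINE2 and PLAT also passed a 2-fold limit, which 3.68% of entries passed upward and 5.38% downward. In CPM (read counts scaled for library size and composition) the groups did not overlap for 4 of the 5 tested members, against 55.6% of all entries. The median log2 fold change was 0.51 over the tested members and 0.0063 over all entries tested. In bulk RNA, fewer cells that make a transcript and less transcript per cell cannot be told apart.

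**Figure D1:**
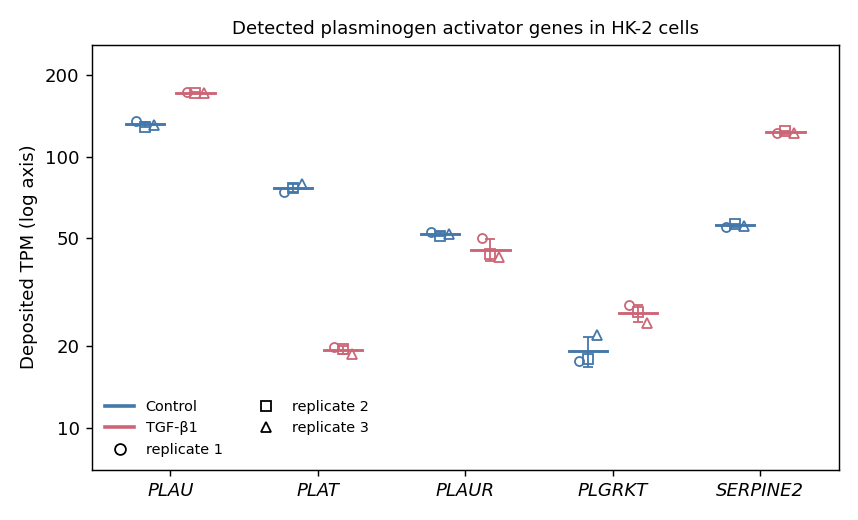
Level of the 5 detected members in each library, as deposited TPM on a log axis. Symbols are single libraries, horizontal lines are group means and bars are SD (n = 3). PLAU and SERPINE2 lay higher in all 3 TGF-b1 libraries than in any Control library, whereas PLAT lay near 76.6 TPM in Control and 19.4 TPM after TGF-β1.

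Among the activators, PLAU and PLAT moved in opposite directions. PLAU (gene-PLAU, GRCh38 chromosome 10, 73909182 to 73917497, plus strand, 12 merged exons) encodes urokinase. Its level was 115, 108 and 107 CPM in Control replicates 1, 2 and 3, and 162, 153 and 154 CPM in TGF-b1 replicates 1, 2 and 3. Every TGF-b1 library was above every Control library. The mean rose from 110 ± 4.17 to 156 ± 5.06 CPM (SD, n = 3), a log2 fold change of 0.51 ± 0.05 (SE; 95% interval 0.39 to 0.63) with an edgeR adjusted p of 2.2e-05. Per length, PLAU was the most abundant member in both groups, at 132 ± 3.12 TPM in Control and 173 ± 0.659 TPM in TGF-b1 libraries.

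An open reading frame gene, C10orf55 (gene-C10orf55, chromosome 10, 73909969 to 73922777, minus strand), overlaps PLAU on the opposite strand. It had 50 reads over the Control libraries and 53 over the TGF-b1 libraries, against 7746 and 11144 for PLAU. It was not called, with a log2 fold change of 0.08 ± 0.41 (SE). Whether counting used strand is not given in the sources used here, so reads from the 2 genes may not be separable.

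PLAT (gene-PLAT, chromosome 8, 42174718 to 42207565, minus strand, 14 merged exons) encodes tissue plasminogen activator and showed the largest change of the tested members. It was at 69.2, 70.6 and 71.5 CPM in Control, and at 20.4, 19.1 and 18.5 CPM after TGF-β1. The groups were far apart, and the spread within each was small. The mean fell from 70.4 ± 1.15 to 19.4 ± 0.993 CPM (SD, n = 3). The log2 fold change was -1.86 ± 0.06 (SE; 95% interval -2.0 to -1.73; edgeR adjusted p = 3.4e-09), or 0.275 times the Control level. PLAT ranked next after PLAU per length in Control, at 76.6 ± 2.64 TPM, and below the other 4 detected members after TGF-β1, at 19.4 ± 0.595 TPM.

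Since both activators cut the same substrate, their levels were compared within each library, where scaling between libraries plays no part. The PLAU to PLAT ratio of TPM was 1.83, 1.69 and 1.66 in Control, against 8.76, 8.80 and 9.23 after TGF-β1. Its mean was 1.73 ± 0.0934 and 8.93 ± 0.259 (SD, n = 3), a 5.18-fold difference. PLAU thus made up 63.3% ± 1.24 of the summed activator transcripts in Control and 89.9% ± 0.259 after TGF-β1. The groups did not overlap, and the exact permutation p was 0.1, the smallest that 3 libraries against 3 can give.

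The sum of the activators depended on the scale. In TPM, PLAU plus PLAT was 209 ± 2.33 in Control and 192 ± 1.13 after TGF-β1 (SD, n = 3), with no overlap. In scaled CPM per kilobase the sum was 62.7 ± 1.15 and 62.7 ± 2.11, and the groups overlapped. The TPM of the median entry tested was itself lower by a log2 difference of -0.11 in the TGF-b1 libraries. The difference in the TPM sum was -0.12 on the log2 scale.

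**Figure D2:**
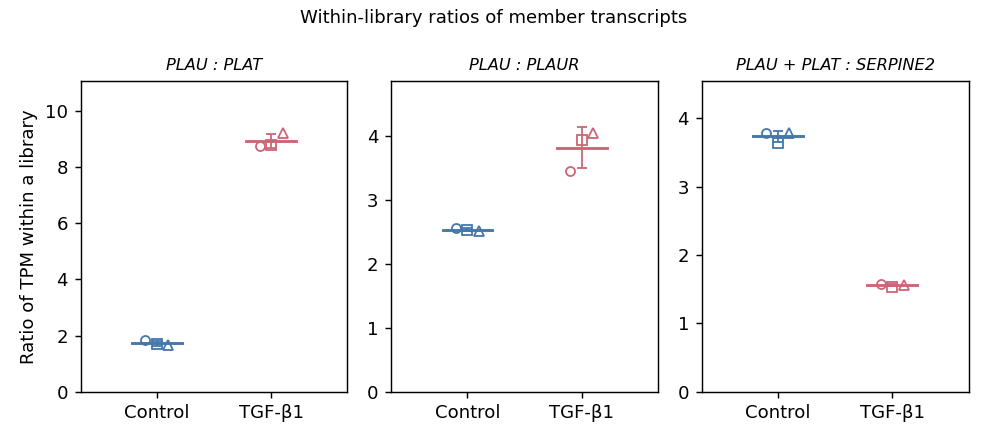
Ratios of member transcripts within each library, from deposited TPM on linear axes that start at 0. Symbols are single libraries, lines are group means and bars are SD (n = 3). PLAU to PLAT was 1.66 to 1.83 in Control and 8.76 to 9.23 after TGF-β1, PLAU to PLAUR was 2.52 to 2.57 and 3.46 to 4.05, and PLAU plus PLAT to SERPINE2 was 3.64 to 3.79 and 1.54 to 1.57.

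Of the 2 receptors, PLGRKT rose and PLAUR was not called. PLAUR (gene-PLAUR, chromosome 19, 43646095 to 43670197, minus strand, 11 merged exons) encodes the membrane-anchored urokinase receptor. It was at 50.7, 48.4 and 48.3 CPM in Control, against at 53.2, 43.8 and 43.2 CPM after TGF-β1. TGF-b1 replicate 1 lay above all Control libraries and the other TGF-b1 libraries lay below them, so the groups overlapped. The log2 fold change was -0.07 ± 0.08 (SE), with a 95% interval from -0.25 to 0.11 and an edgeR adjusted p of 0.509. Without TGF-b1 replicate 1 the value was -0.19 with an adjusted p of 0.0117, so whether PLAUR was called depended on that library. In TPM, which carries the shift given above, PLAUR was 52.8, 51.2 and 52.1 in Control, against 50.2, 43.7 and 42.6 after TGF-β1, without overlap.

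For the ligand and its receptor, the PLAU to PLAUR ratio of TPM was 2.57, 2.53 and 2.52 in Control, against 3.46, 3.95 and 4.05 after TGF-β1, a 1.5-fold difference. The groups did not overlap (exact permutation p = 0.1, the smallest possible).

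PLGRKT (gene-PLGRKT, chromosome 9, 5357966 to 5438539, minus strand, 8 merged exons) encodes a membrane protein that binds plasminogen through a carboxy-terminal lysine. Its level was 8.73, 8.79 and 10.5 CPM in Control, against 15.5, 13.8 and 12.8 CPM after TGF-β1. It had the fewest reads of the tested members, and its groups were still separate. The log2 fold change was 0.59 ± 0.11 (SE; 95% interval 0.36 to 0.82; edgeR adjusted p = 0.001). Per length it was at 19.2 ± 2.39 TPM in Control and 26.5 ± 1.96 TPM after TGF-β1 (SD, n = 3), which placed it below the other 4 detected members in Control and above PLAT after TGF-β1.

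SERPINE2 was the detected inhibitor of the members and rose more than 2-fold. SERPINE2 (gene-SERPINE2, chromosome 2, 223975045 to 224039286, minus strand, 13 merged exons) encodes a secreted and matrix-bound serpin that inhibits thrombin, urokinase and tissue plasminogen activator. It was at 54.4, 54.8 and 52.8 CPM in Control, against at 133, 128 and 127 CPM after TGF-β1. The TGF-b1 libraries all exceeded the Control libraries by a wide margin. The log2 fold change was 1.26 ± 0.05 (SE; 95% interval 1.15 to 1.38), or 2.40-fold, with an edgeR adjusted p of 1.4e-08. In TPM it moved from 55.9 ± 0.672 to 123 ± 1.49 (SD, n = 3).

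Set against the activators it blocks, SERPINE2 took a larger place after TGF-β1 in every library. The ratio of PLAU plus PLAT to SERPINE2 was 3.79, 3.64 and 3.78 in Control, against 1.57, 1.54 and 1.57 after TGF-β1, or 0.417 times the Control ratio. The groups did not overlap. The exact permutation p was 0.1, the smallest possible, and stayed 0.1 after adjustment over the 3 ratios. These ratios compare transcripts and not protein or enzyme activity.

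Per length, the order of the detected members in Control was PLAU, PLAT, SERPINE2, PLAUR and PLGRKT. After TGF-β1 it was PLAU, SERPINE2, PLAUR, PLGRKT and PLAT. Neighbours in either order did not overlap in range, although SERPINE2 and PLAUR were close in Control, at 55.3 to 56.6 and 51.2 to 52.8 TPM.

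Plasminogen itself and the other serpins of the set were at or near 0. PLG (gene-PLG, chromosome 6, 160702193 to 160754097) encodes the precursor, made mainly by the liver, and had 0 reads in all 6 libraries. With 142 M counts in all, a count of 0 allows a level of up to 0.0212 CPM, which covers counting error only. SERPINB2 (gene-SERPINB2, chromosome 18, 63887705 to 63903890) was read 0 times in the Control and 2 times in the TGF-b1 libraries (two-sided exact conditional p = 0.50). SERPINF2 (gene-SERPINF2, chromosome 17, 1742808 to 1755265) gave 2 reads in the Control libraries and 0 in the others (two-sided exact conditional p = 0.248, the smallest that 2 reads can give). A difference in these 3 genes was not detectable at this depth. When all entries with a count were tested, edgeR gave SERPINB2 and SERPINF2 an adjusted p of 0.379 each.

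**Figure D3:**
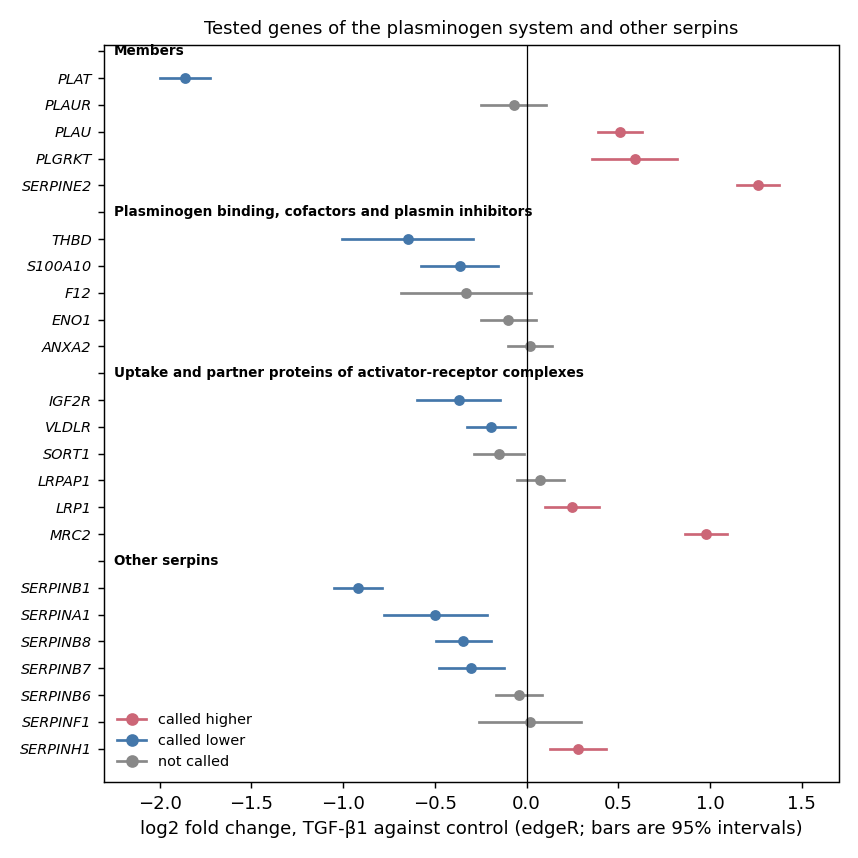
Log2 fold change of every tested member and list gene, TGF-β1 against Control, with edgeR estimates as points and 95% intervals as bars. Red genes were called higher, blue genes lower and grey genes were not called. PLAT lay farthest to the left at -1.86 and SERPINE2 farthest to the right at 1.26.

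Some other genes of the system bind plasminogen at surfaces or hold plasmin in check. The list that follows also held genes with other roles, among them THBD and F12. Of 12 genes for plasminogen binding, cofactors and plasmin inhibitors, 5 were tested, 0 were called higher and 2 were called lower, beside 22.1% of all entries, with a median log2 fold change of -0.33. S100A10, which pairs with annexin A2 to bind plasminogen at the membrane, was at 213, 189 and 184 CPM in Control, against 174, 143 and 138 CPM after TGF-β1. It fell by 0.36 ± 0.09 (SE) on the log2 scale (edgeR adjusted p = 0.010). THBD, the thrombin receptor thrombomodulin, was the other called gene (log2 fold change -0.65, from 3.67 to 2.34 CPM) and lay below the level set for named genes, so it was named after its values were seen. ANXA2 at 0.02, ENO1 at -0.10 and F12 at -0.33 were not called. Without TGF-b1 replicate 1, 4 genes of this list were called lower instead of 2, beside 24.2% of all entries, with ENO1 (adjusted p = 0.00678) and F12 (adjusted p = 0.0146) added.

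Endocytic receptors and partners of activator complexes moved both ways. Of 10 listed genes, 6 were tested, 2 were higher and 2 were lower, beside 22.2% and 22.1% of all entries, with a median log2 fold change of -0.04. MRC2, which encodes the collagen receptor Endo180 that associates with the urokinase receptor, had the largest change of the list. It was at 171, 173 and 171 CPM in Control, against 355, 332 and 331 CPM after TGF-β1, with no overlap, and it rose by 0.98 ± 0.05 (SE) on the log2 scale (edgeR adjusted p = 9.0e-08). LRP1, which internalises protease and serpin complexes, rose by a log2 fold change of 0.25 ± 0.07 (adjusted p = 0.011), but its call was lost with scaling by total counts only and without Control replicate 2. IGF2R, which binds the urokinase receptor and plasminogen, changed by -0.37 ± 0.10 (adjusted p = 0.015), and its call was lost without Control replicate 1. VLDLR, a receptor of the LRP family, changed by -0.19 ± 0.06 (adjusted p = 0.021), and its call was lost without any 1 of the Control libraries. With Control replicate 1 or 2 left out, 2 genes of this list were called. Over the fits with 1 library left out, 5333 to 7196 of all entries were called, against 6582 with every library.

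Serpins outside the set were read in the same way. Of 28 listed, 7 were tested, 4 were lower and 1 was higher, beside 22.1% and 22.2% of all entries, with a median log2 fold change of -0.30, and 9 had 0 reads in every library. SERPINB1, an intracellular inhibitor of neutrophil proteases, was at 52.8, 52.3 and 54.6 CPM in Control, against 29.3, 27.6 and 27.6 CPM after TGF-β1. The groups were well apart, and the fitted log2 difference was -0.92 ± 0.06 (SE), with an edgeR adjusted p of 4.0e-07. SERPINA1, the secreted inhibitor of neutrophil elastase, fell by 0.50 on the log2 scale (adjusted p = 0.0087). SERPINB8 fell by 0.34 (adjusted p = 0.0018) and SERPINB7 by 0.30 (adjusted p = 0.011), and the SERPINB7 call was lost without Control replicate 3. SERPINH1, the collagen chaperone HSP47, which does not inhibit proteases, rose by 0.28 (adjusted p = 0.0073), and its call was lost with scaling by total counts only.

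The nearest tested genes on either side had estimates of the opposite sign for PLAU. For PLAT, SERPINE2, PLGRKT and PLAUR they had the sign of the member, although PLAUR itself was not called. Over all members, the nearest tested genes lay from 3535 bases (AP3M2) to 590689 bases (IGF2R) away. How often neighbours share a sign over all entries was not tested. Among all entries tested, 44.3% were called in either direction. Beside PLAU, which rose, the nearest tested genes CAMK2G at -0.19 and VCL at -0.20 on the log2 scale were both called lower. Beside PLAT, IKBKB was called lower at -0.92 and AP3M2 was not called at -0.15. CUL3 beside SERPINE2 was called higher at 0.22 and MRPL44 was not called at 0.16, both far below the 1.26 of SERPINE2. CD274 beside PLGRKT was called higher at 0.35 and JAK2 was not called at 0.22, while PLAUR had CADM4 called lower at -0.92 and SMG9 not called at -0.05. Around the members under the read limit, SERPINB7 and SERPINB8, on either side of SERPINB2, were both lower, MAP3K4 beside PLG was higher at 0.77 and WDR81 beside SERPINF2 was higher at 0.49. IGF2R, on the other side of PLG, was called lower at -0.37, and SERPINF1 beside SERPINF2 was not called at 0.02.

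The genes whose pattern over the 6 libraries was closest to the members changed 2-fold were then listed, by Euclidean distance of gene-centred log2 CPM over 10718 candidates with a mean of at least 5 CPM. For PLAT they were TBC1D2 at a distance of 0.137, KIAA1217 at 0.163 and CX3CL1 at 0.203, with log2 fold changes of -1.78, -1.89 and -1.90. For SERPINE2 they were PHLDB1 at 0.0519, B4GALT1 at 0.0521 and TK2 at 0.0596, with log2 fold changes of 1.26, 1.25 and 1.28. With 2 groups of libraries, such likeness mostly reflects a similar fold change.

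**Figure D4:**
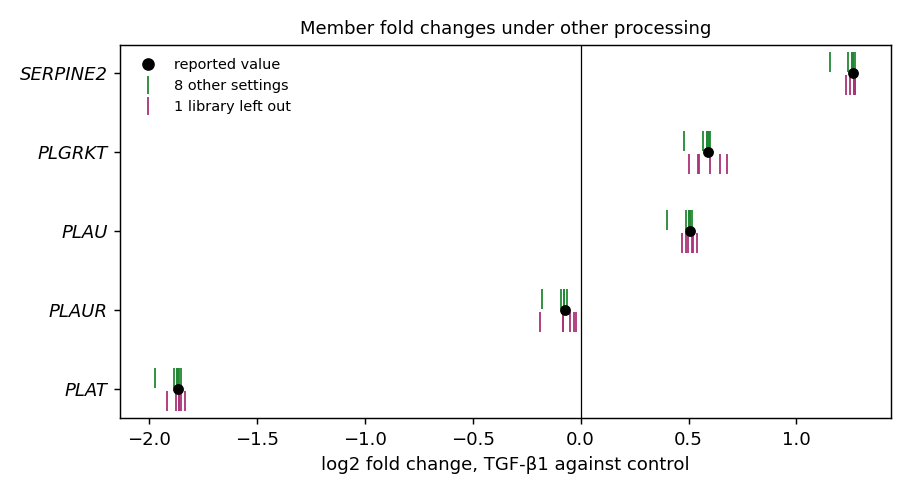
Log2 fold change of the 5 tested members under other processing, TGF-β1 against Control. Black points are the reported values, green ticks the 8 other settings of test, scaling, filter or block, and purple ticks the 6 fits with 1 library left out. No member changed sign, and the PLAUR values lay between -0.19 and -0.02.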

How the data were processed

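RNA-seq of poly(A) mRNA was analysed in 6 libraries of HK-2 cells, 3 Control and 3 TGF-b1. The authors deposited raw counts per gene with TPM and FPKM values. The deposited TPM was used for levels between genes, and the deposited FPKM was not tested. The processing notes name CASAVA, featureCounts 2.0.1, DESeq2 1.16.1 and hg38, without their roles. The aligner, annotation release and strand setting are not given in the sources used here.

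Broken records, 7 per file, were rejoined. The 598 loci without a name, with 0.396% to 0.464% of counts, were left out. Each library had 21.9 to 26.9 megacounts. Named entries passing filterByExpr (minimum count 10) were scaled with TMM and compared with the quasi-likelihood F test of edgeR 4.0.16 (robust, two-sided), with Benjamini-Hochberg adjustment over 14860 entries. The code was tested on simulated data. Members under the filter were compared by exact conditional tests of summed reads, and ratios by exact permutation tests, all two-sided. The other tools were scipy 1.17.1 and pandas 2.3.3 under Python 3.11.15, and DESeq2 1.42.0 and limma 3.58.1 under R 4.3.3.

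Alternatives were DESeq2, limma-voom, RLE size factors, total counts only, no filter, a mean of at least 50 counts, primary-chromosome entries only, leaving out each library, and the replicate number as a block. The scale of the activator sum was varied after seeing the data. From the lists, genes were named if called and either above a mean of 5 CPM or changed 2-fold, with overlapping genes and the nearest tested neighbours. Members and lists were chosen with earlier results of these data known. Some genes of this system are not reported here.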

Additional observations from a re-analysis of the deposited data

How the results depend on the processing

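The 4 called members, PLAU, PLAT, PLGRKT and SERPINE2, kept their direction and their call under all 14 alternatives. The log2 fold change ranged from 0.40 to 0.54 for PLAU, from -1.97 to -1.83 for PLAT, from 0.48 to 0.68 for PLGRKT and from 1.15 to 1.27 for SERPINE2. PLAUR passed the threshold only without TGF-b1 replicate 1, at -0.19 (edgeR adjusted p = 0.0117). With 1 library left out its value ranged from -0.19 to -0.021, and with total counts only it was -0.18 (adjusted p = 0.107). With 1 library left out, 4 to 5 members were called. The plasminogen binding list then had 2 to 4 called genes and the uptake list 2 to 4. Over all 14 alternatives, 5333 to 7196 of all entries were called, against 6582 in the reported fit. With total counts only, 4 genes of the plasminogen binding list were called in place of 2. This scaling moved the median log2 fold change of all entries by -0.11. The log2 difference in PLAU plus PLAT was -0.12 in TPM, and it ranged from -0.13 to -0.11 with 1 library left out. In CPM per kilobase it was 0.0013 and the groups overlapped, so the fall in TPM was not seen on that scale. The cause of these changes was not tested. In the ratios, leaving out 1 library gave log2 differences from 2.34 to 2.42 for PLAU to PLAT, from 0.54 to 0.66 for PLAU to PLAUR and from -1.28 to -1.25 for PLAU plus PLAT to SERPINE2.

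Libraries of the 2 groups share replicate numbers, and correlations over 3 libraries per group cannot decide whether the numbers pair them. The deviations from the group means correlated at 0.111, -0.0117 and 0.0762 for numbers 1, 2 and 3. Control replicate 1 correlated best with TGF-b1 replicate 1, and Control replicates 2 and 3 with TGF-b1 libraries of another number. With the replicate as a block, 6790 entries were called in place of 6582, the same 4 members were called, and no call of a member or named list gene changed. PLG, SERPINB2 and SERPINF2 had at most 2 reads in a group, so a difference in them was not detectable at this depth.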
